A study of Mus musculus with 8 samples.

Results

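This section describes 33 listed transcripts of microglia, brain macrophages and other leukocytes in RNA from sorted brain endothelial cells of mouse pups. The members were taken by gene symbol from a fixed list, and 32 of the 33 had a row among the 25700 gene identifiers of the count tables. The remaining symbol, Lpl2, names no gene in GENCODE M21 for GRCm38 and has no value here. The 32 genes fell into 4 classes by their known expression: 7 genes of homeostatic microglia, 16 genes shared by microglia and macrophages (shared phagocyte genes), 4 genes of macrophages at the brain's borders and 5 genes of leukocytes in general.

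The study compared GLUT1EC-/- pups (KO, n = 4), which lack the glucose transporter GLUT1 in endothelial cells, with wild-type pups (WT, n = 4). All were C57BL/6 pups at postnatal day 6, and their brain endothelial cells were isolated by fluorescence-activated sorting and lysed without culture, each library being 1 pup. The labels give neither the Cre driver nor the sorting markers, so the gate cannot be set against the transcripts described here. By the sample titles the 4 KO pups and WT pup 5 shared a cage and WT pups 1, 2 and 3 came from another. A second set of labels puts WT pup 3 with the KO pups and WT pup 5 with WT pups 1 and 2. Genotype and cage were therefore nearly confounded. The label sets also disagree on pup numbers among the WT samples, and the numbers used here are those of the titles.

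Microglia are the macrophages that live within brain tissue. They arise from the yolk sac, depend on the receptor CSF1R and on the transcription factor PU.1, and in the undisturbed brain carry a set of purine and chemokine receptors that sense neuronal and vascular signals. Border macrophages sit along vessels, in the meninges and in the choroid plexus. They share CSF1R and PU.1 with microglia but carry scavenger and mannose receptors, and perivascular macrophages lie directly on the outer vessel wall. CD45, the product of Ptprc, marks nearly every blood-derived cell.

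The libraries held 20.9 to 114 M counts (M for mega), with WT pup 2 the deepest and KO pup 1 the shallowest. In KO pup 1 just 13624 genes had a count, where the other libraries had 15756 to 17082, and results that rest on it are given with and without it. Slc2a1, the transcript of the deleted transporter, averaged 1506 ± 89.5 CPM over the KO pups against 3043 ± 663 CPM over the WT pups (log2 fold change -1.01, edgeR adjusted p 0.0062). Here and below CPM are counts scaled to library size with TMM factors, and ± gives the SD over the 4 pups of a group. The 12 endothelial genes fixed as a check, among them Cdh5, Cldn5 and Kdr, summed to 14709 to 16424 CPM in every library. Markers of other cell types were also present. The 10 mural genes summed to 1713 to 2600 CPM in KO and 470.1 to 2608 in WT, and the 8 astrocyte genes to 66.9 to 163 CPM in KO and 39.1 to 79.7 in WT. Their part in the results below was not tested.

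Together the 32 transcripts took 0.264% to 0.666% of the counts in KO libraries and 0.297% to 0.451% in WT libraries. The apolipoprotein gene Apoe, which astrocytes and mural cells also express, supplied a large part of this. Without it the other 31 genes took 0.175%, 0.271%, 0.462% and 0.351% in KO pups 1 to 4 and 0.229%, 0.169%, 0.231% and 0.268% in WT pups 1, 2, 3 and 5. KO pup 3 was highest, and WT pup 2 and KO pup 1 were lowest, so the groups overlapped. In bulk RNA such as this, fewer cells of a type and less RNA per cell cannot be told apart.

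Levels of different genes were compared per kilobase of annotated exon, as the mean over the 8 libraries. Apoe led with 688 CPM per kilobase, followed by the 3 chains of complement C1q, the molecule that starts the classical complement pathway: C1qa at 182, C1qb at 167 and C1qc at 114. Border macrophage transcripts and Tyrobp (82.4) came next. Pf4, a chemokine made by border macrophages and platelets, reached 87.7 CPM per kilobase. Mrc1, the mannose receptor CD206, reached 85.0, and Lyve1, a hyaluronan receptor of perivascular macrophages and lymphatic endothelium, 69.1. The scavenger receptor gene Cd163 measured 21.4 on the same scale.

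Transcripts of homeostatic microglia lay far lower per kilobase. Cx3cr1, the fractalkine receptor, measured 7.96 CPM per kilobase and P2ry12, the purine receptor that steers microglial processes, 7.65. Gpr34, a receptor for lysophosphatidylserine, measured 4.32 and P2ry13, a purine receptor next to P2ry12 in the genome, 3.74. Siglech, a sialic acid binding lectin, stood at 1.30, the membrane protein gene Tmem119 at 1.12 and Sall1, a transcription factor that maintains microglial identity, at 0.807. All 4 border genes exceeded all 7 homeostatic genes in mean length-scaled level. Exon lengths were those of all annotated isoforms joined, so a gene with long rarely used exons is understated. Ptprc, with 18.3 kilobases of joined exon, measured 1.18.

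**Figure D1:**
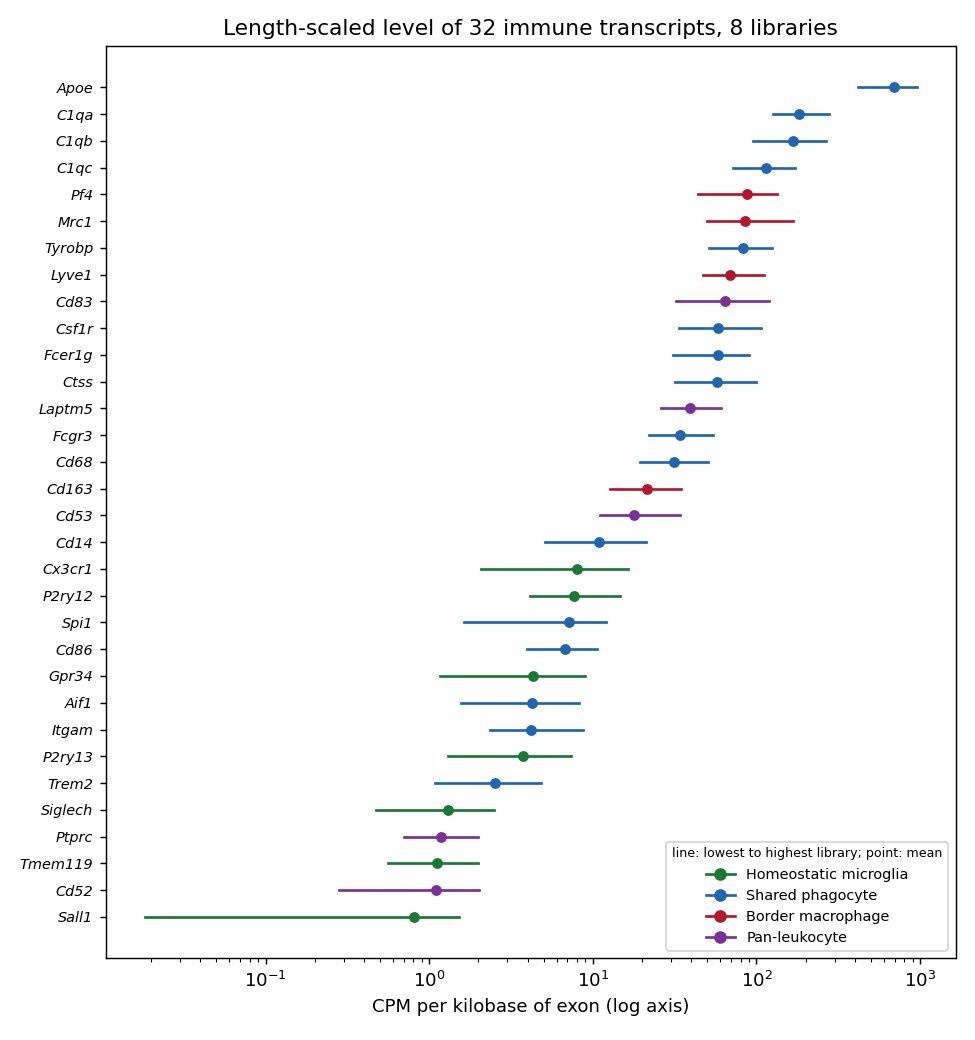
Mean (point) and lowest to highest library (line) of the length-scaled level of the 32 transcripts, in CPM per kilobase of exon on a log axis, coloured by class. Apoe stands at 688, the 3 C1q chains between 114 and 182, the border genes between 21.4 and 87.7 and the homeostatic genes between 0.807 and 7.96.

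On the CPM scale the 4 border genes summed to 8.90 to 15.7 times the 7 homeostatic genes in each library. This ratio was 15.7, 12.9, 9.99 and 11.1 in KO pups 1 to 4 and 9.92, 15.03, 8.90 and 9.16 in WT pups 1, 2, 3 and 5. The highest ratios were those of KO pup 1 and WT pup 2, the libraries with the lowest homeostatic sums. Groups overlapped in this ratio, with means of 12.4 ± 2.48 for KO and 10.7 ± 2.88 for WT.

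Spi1, a member, encodes PU.1, a factor that binds purine-rich DNA with the core GAGGAA, often extended to GAGGAAGT. Both motifs were searched on both strands of RefSeq windows from 250 bases before to 50 bases after each annotated start (GRCm38.p6), which 21 of the 32 genes had. Every match of the longer motif is also one of the shorter. The core was present in 16 of the 21 genes, against 31.3% of 27025 genes in the table. The longer motif was present in 4 of 21, Pf4, C1qc, Cd53 and Ctss, against 3.69% of all. A match describes letters in this window and is not a measured binding site. The stretches below are examples from genes whose windows hold the core, and whether it bears on how their levels varied was not tested. They read 5′ to 3′ on the gene's strand, with the core (GAGGAA or its reverse complement TTCCTC) in capitals. All end at the last base before the start, except C1qc, whose stretch runs from 233 to 114 bases before it.
Pf4, chr5:90772315-90772434, plus strand: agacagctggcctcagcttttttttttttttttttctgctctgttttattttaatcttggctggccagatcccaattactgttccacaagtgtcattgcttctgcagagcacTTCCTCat
Mrc1, chr2:14229294-14229413, plus strand: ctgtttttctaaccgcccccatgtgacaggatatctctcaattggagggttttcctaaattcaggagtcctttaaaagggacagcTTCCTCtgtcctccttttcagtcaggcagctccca
C1qc, chr4:136893028-136893147, minus strand: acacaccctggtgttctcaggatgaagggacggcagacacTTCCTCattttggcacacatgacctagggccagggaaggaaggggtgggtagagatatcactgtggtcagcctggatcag
Itgam, chr7:128062520-128062639, plus strand: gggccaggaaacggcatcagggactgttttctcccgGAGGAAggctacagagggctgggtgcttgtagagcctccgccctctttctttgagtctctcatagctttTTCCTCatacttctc
P2ry13, chr3:59210883-59211002, minus strand: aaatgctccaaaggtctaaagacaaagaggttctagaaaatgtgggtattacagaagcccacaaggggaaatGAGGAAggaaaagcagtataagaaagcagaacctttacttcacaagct
Cd53, chr3:106790150-106790269, minus strand: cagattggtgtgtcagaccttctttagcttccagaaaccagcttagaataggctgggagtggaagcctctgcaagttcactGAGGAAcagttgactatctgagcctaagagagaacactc
Laptm5, chr4:130913196-130913315, plus strand: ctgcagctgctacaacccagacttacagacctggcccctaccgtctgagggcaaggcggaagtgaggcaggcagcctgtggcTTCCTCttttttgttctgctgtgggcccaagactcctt

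The printed stretches hold 1 core each, except Itgam with 2. Border, shared and pan-leukocyte genes are all among them, and P2ry13 stands for the homeostatic class. The core was not found in the windows of P2ry12, Cx3cr1, Sall1, Cd163 and Fcer1g. No window was given for Tmem119, Gpr34, C1qa, Csf1r, Tyrobp, Cd14, Cd86, Spi1, Lyve1, Cd52 and Cd83.

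The comparison of KO with WT asked whether these transcripts differed when endothelial GLUT1 is lost. With all 8 libraries, edgeR's quasi-likelihood test called 0 of the 32 members at an adjusted p below 0.05, where it called 0.389% of all 14154 tested genes (55 genes). DESeq2 called 2 members, Ptprc and Cd53, both higher in KO, where it called 1.14% of its tested genes higher, and limma-voom called 0. Nevertheless 30 of the 32 fold changes were above 0, against 50.3% of all tested genes, with a median log2 fold change of 0.43 against 0.00. It was 0.5 or more for 12 members, against 7.79% of all tested genes. Unadjusted p-values were below 0.05 for 9 members, all higher in KO, against 5.52% of all genes. No member separated the groups without overlap, against 7.19% of all genes in either direction and 3.77% with KO higher. The members varied together across libraries, so these counts are not independent of each other. The 8 astrocyte genes had a larger median log2 fold change than the members, 0.96, with 6 above 0. In edgeR 0 of them were called and 5 had an unadjusted p below 0.05, all higher in KO. Medians were 0.20 for mural, 0.27 for neuronal, 0.18 for oligodendrocyte and -0.19 for fibroblast genes. Among KO pups the astrocyte sum was lowest in pup 3 (66.9 CPM), where the members summed highest. Among WT pups both sums were lowest in pup 2, at 39.1 CPM for the astrocyte genes and 3034 CPM for the members. Whether the astrocyte shift bears on that of the members was not tested.

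**Figure D2:**
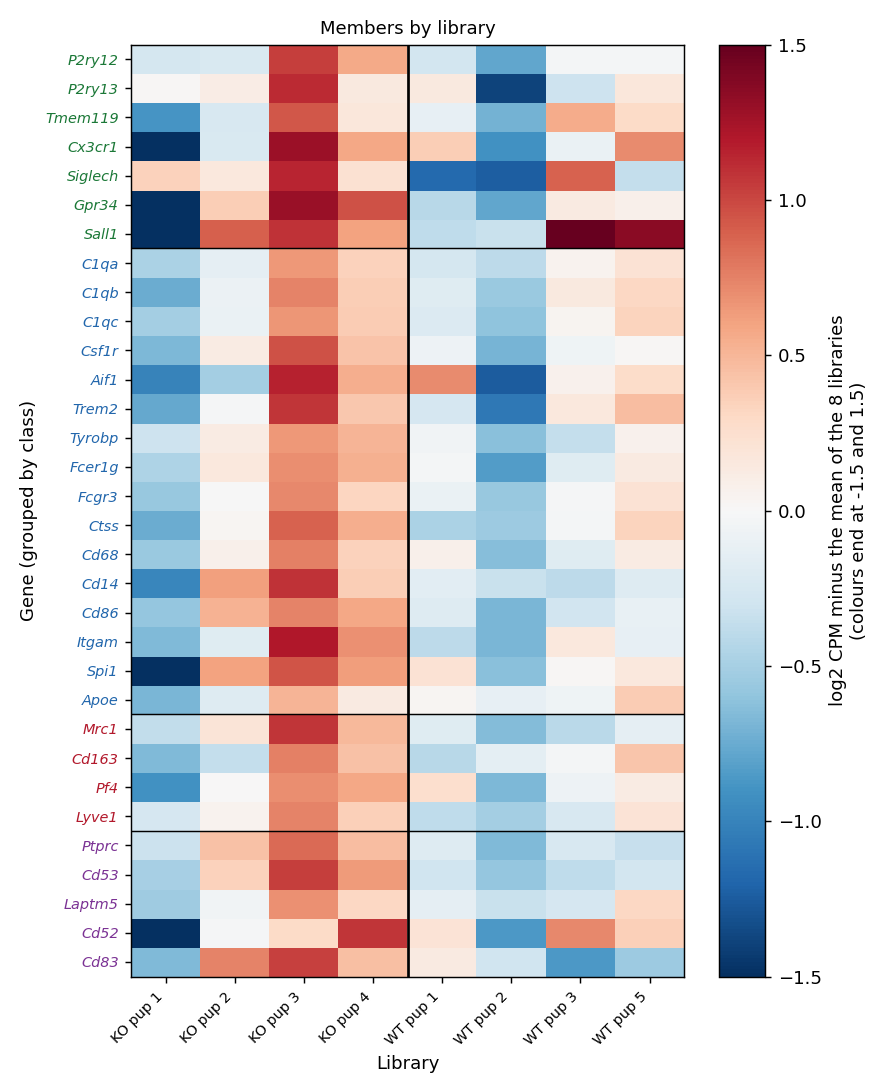
Level of each member in each library as log2 CPM minus its mean over the 8 libraries (colour), with genes in rows grouped by class and libraries in columns. KO pup 3 was the highest KO library for 31 of the 32 genes and KO pup 1 the lowest for 31, while WT pup 2 was the lowest WT library for 28.

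Homeostatic microglial transcripts gave no call and wide spreads. Their summed level was 41.8, 71.7, 167 and 108 CPM in KO pups 1 to 4 and 75.2, 39.5, 79.7 and 97.6 CPM in WT pups 1, 2, 3 and 5. The WT range lay wholly inside the KO range except for WT pup 2. Means were 97.0 ± 53.9 CPM in KO and 73.0 ± 24.3 in WT, a log2 ratio of 0.41 that came to 0.01 without KO pup 3 and to 0.66 without KO pup 1.

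P2ry12 (ENSMUSG00000036353; GRCm38 chromosome 3, 59216272 to 59262871, minus strand) measured 15.1, 15.5, 37.3 and 26.8 CPM in KO pups 1 to 4. The WT values were 15.02, 10.5, 17.8 and 17.7 CPM in pups 1, 2, 3 and 5. KO pups 3 and 4 stood above all WT pups and KO pups 1 and 2 within their range. The log2 fold change was 0.64 (SE 0.28, edgeR adjusted p 0.434). Cx3cr1 ran from 9.35 CPM in KO pup 1 over 25.8 and 45.2 in KO pups 2 and 4 to 73.8 in KO pup 3. WT pups 1, 2, 3 and 5 measured 39.1, 16.1, 28.2 and 49.5 CPM, inside the KO range, and the log2 fold change was 0.22 (SE 0.50, edgeR adjusted p 0.926).

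Both purine receptors and Gpr34, Siglech, Cx3cr1 and Tmem119 had fold changes above 0, and Sall1 alone of the class lay below. Gpr34 measured 0.80 (SE 0.47), Siglech 0.72 (SE 0.47), P2ry13 0.67 (SE 0.35) and Tmem119 0.08 (SE 0.44) on the log2 scale. Sall1 stood at 0.0959 CPM in KO pup 1, from 2 counts, against 5.01, 5.72 and 4.10 CPM in KO pups 2 to 4. In WT pups 1, 2, 3 and 5 it stood at 2.07, 2.14, 7.97 and 6.89 CPM. Its log2 fold change of -0.34 (SE 0.76, edgeR adjusted p 0.926) became 0.06 without KO pup 1. Counts behind the smallest genes limit what can be read here: Tmem119 had 27 to 163 counts a library and Sall1 2 to 294.

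Shared phagocyte genes summed to 1708, 2525, 4211 and 3240 CPM in KO pups 1 to 4 and to 2583, 2132, 2604 and 3288 CPM in WT pups 1, 2, 3 and 5. The log2 ratio of the means was 0.14, and 0.36 without Apoe. It turned to -0.09 without KO pup 3 when Apoe was kept. Apoe itself measured 890.4, 1256, 2043 and 1576 CPM in KO pups 1 to 4 and 1462, 1309, 1366 and 1871 CPM in WT pups 1, 2, 3 and 5, with a log2 fold change of -0.06 (SE 0.21, edgeR adjusted p 0.955). Of the 16 genes, Apoe alone had a fold change below 0.

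Csf1r, the receptor through which CSF1 and IL-34 keep microglia and macrophages alive, measured 199, 344, 614 and 426 CPM in KO pups 1 to 4. WT pups 1, 2, 3 and 5 had 300.1, 195, 304 and 321 CPM. KO pups 2, 3 and 4 lay above every WT pup, and KO pup 1 lay between WT pup 2 and the other WT pups. The log2 fold change was 0.50 (SE 0.28, edgeR adjusted p 0.556). Exons of Csf1r share 873 bases with Hmgxb3 on the opposite strand, and the strand setting of the counting is not given in the sources used here.

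The C1q chains kept similar proportions in most libraries. Summed, they measured 384, 525, 912 and 729.6 CPM in KO pups 1 to 4 and 487, 395, 599 and 692 CPM in WT pups 1, 2, 3 and 5. C1qb had the middle SD of the 3 in CPM, with 195 ± 80.2 for KO and 169 ± 43.1 for WT. Its highest library was 2.81 times its lowest, against 2.19 for C1qa and 2.40 for C1qc. The ratio of C1qa to C1qb was 0.985 to 1.05 in 6 libraries, and 1.27 in KO pup 1 and 1.19 in WT pup 2. That of C1qc to C1qb ran from 1.13 in WT pup 3 to 1.43 in KO pup 1. The 3 genes lie side by side on chromosome 4, between 136880129 and 136898803, and their log2 fold changes of 0.21 to 0.25 did not pass (edgeR adjusted p 0.75 to 0.847).

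Adaptors and receptors of phagocyte signalling were higher by a moderate amount that did not pass. Tyrobp (DAP12), the adaptor that carries signals from TREM2, had a log2 fold change of 0.51 (SE 0.20, edgeR adjusted p 0.37), while Trem2 itself, a lipid receptor, had 0.41 (SE 0.38). Fcer1g, the common gamma chain of Fc receptors, measured 0.49 (SE 0.25) and the IgG receptor gene Fcgr3 0.28 (SE 0.24). For the lysosomal genes Ctss (cathepsin S) and Cd68 the values were 0.44 (SE 0.30) and 0.36 (SE 0.24). Spi1 measured 4.41, 25.6, 32.4 and 26.0 CPM in KO pups 1 to 4 against 10.9 to 19.7 CPM in WT, so it was lowest of all in KO pup 1 and above every WT pup in the other 3. Itgam, the integrin CD11b, measured 0.67 (SE 0.35) and Aif1, the calcium-binding protein IBA1, 0.19 (SE 0.48). Itgam shares 3450 exon bases with the predicted gene Gm49368 on the same strand, so its counts are uncertain.

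Cd86 and Cd14, a costimulatory ligand for T cells and a coreceptor for lipopolysaccharide, stood out among the shared genes. Cd86 measured 15.5, 33.5, 39.0 and 34.8 CPM in KO pups 1 to 4 and 20.4, 14.5, 19.0 and 21.5 CPM in WT pups 1, 2, 3 and 5. KO pups 2, 3 and 4 were above all WT pups, and KO pup 1 was inside the WT range. The log2 fold change was 0.71 (SE 0.24, edgeR adjusted p 0.287). Cd14 measured 8.78, 26.6, 36.6 and 22.3 CPM in KO pups 1 to 4 and 15.5, 13.7, 13.2 and 15.1 CPM in WT pups 1, 2, 3 and 5. KO pup 1 was below every WT pup and the other KO pups were above, with a log2 fold change of 0.72 (SE 0.32, edgeR adjusted p 0.432).

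Border macrophage genes summed to 655, 925, 1670 and 1192 CPM in KO pups 1 to 4 and 746, 594, 709 and 894 CPM in WT pups 1, 2, 3 and 5. Means were 1110 ± 433 and 736 ± 124 CPM, a log2 ratio of 0.59. That ratio was 0.33 without KO pup 3 and 0.78 without KO pup 1, and 0.35 with all pups but without Mrc1. Mrc1 (ENSMUSG00000026712; chromosome 2, 14229392 to 14332057, plus strand) supplied most of the sum. It measured 389.9, 577, 1060 and 704 CPM in KO pups 1 to 4 and 443, 319.8, 380.3 and 458 CPM in WT pups 1, 2, 3 and 5. KO pups 2, 3 and 4 lay above every WT pup and KO pup 1 above WT pups 2 and 3 only. The log2 fold change was 0.77 (SE 0.24, edgeR adjusted p 0.245).

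The other border genes differed less. Lyve1 measured 235 ± 70.0 CPM in KO and 168 ± 38.1 in WT, with a log2 fold change of 0.48 (SE 0.20, edgeR adjusted p 0.405). Lymphatic endothelium also makes Lyve1, and its defining transcription factor Prox1 stood at 1.25 to 7.88 CPM in KO and 1.92 to 3.31 CPM in WT. The share of Lyve1 from such cells was not tested. Pf4 measured 0.28 (SE 0.30). Of the platelet genes, Gp9 was at 0 in 5 libraries and Ppbp reached at most 0.787 CPM, while Itga2b stood at 1.85 to 3.93 CPM and Gp1bb at 4.08 to 10.5 CPM in KO and 9.06 to 10.97 in WT. The share of Pf4 from platelets was not tested. Cd163 had 124 ± 55.0 CPM in KO and 109.9 ± 27.7 in WT (log2 fold change 0.17, SE 0.28). The ratio of Mrc1 to Cd163 was 5.59, 6.66, 5.65 and 4.69 in KO pups 1 to 4 and 5.35, 3.19, 3.52 and 3.09 in WT pups 1, 2, 3 and 5, so WT pup 1 lay inside the KO range. Ratios between members, here and below, were picked with their values in view and have no test.

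**Figure D3:**
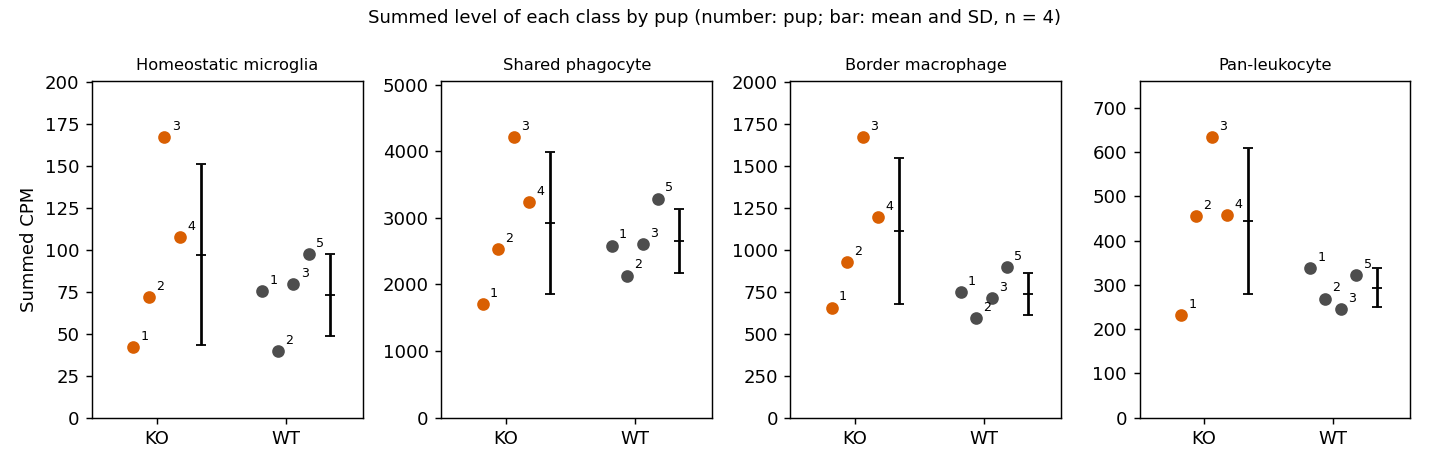
Summed CPM of the members of each class by pup, with orange points for KO, grey points for WT, pup numbers beside the points, and mean and SD (n = 4) as bars. KO pup 3 is highest in all 4 classes, at 167, 4211, 1670 and 634 CPM, and the groups overlap in each.

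Pan-leukocyte genes summed to 231, 455, 634 and 458 CPM in KO pups 1 to 4 and 338, 269, 245 and 323 CPM in WT pups 1, 2, 3 and 5, a log2 ratio of 0.60 between the means. Without KO pup 3 it was 0.38 and without KO pup 1 it was 0.81. Cd83, a glycoprotein of activated antigen-presenting cells and microglia, had the highest CPM of them in KO pups 2, 3 and 4 and WT pups 1 and 2, and Laptm5 in the other 3 libraries. It measured 94.9, 251, 306 and 206 CPM in KO pups 1 to 4 and 164, 122, 82.8 and 102 CPM in WT pups 1, 2, 3 and 5, with a log2 fold change of 0.86 (SE 0.30, edgeR adjusted p 0.309). KO pup 1 lay between the WT pups and the other KO pups above them all. Cd83 averaged 214 CPM in KO and 118 in WT, where the class sum averaged 445 and 293. The class ratio thus leans on Cd83, and no sum was made without it.

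The 2 members with the smallest p-values were leukocyte surface genes. Ptprc (ENSMUSG00000026395; chromosome 1, 138062861 to 138175708, minus strand), the phosphatase CD45, measured 16.4, 27.8, 36.6 and 28.2 CPM in KO pups 1 to 4. Its WT values were 17.9, 12.9, 17.3 and 16.0 CPM in pups 1, 2, 3 and 5, so KO pup 1 lay among them. The log2 fold change was 0.77 (SE 0.21), with an adjusted p of 0.191 in edgeR and 0.0249 in DESeq2. Cd53 (ENSMUSG00000040747; chromosome 3, 106759921 to 106790149, minus strand), a tetraspanin of blood cells, measured 20.4, 36.7, 59.3 and 44.7 CPM in KO pups 1 to 4 and 23.4, 19.3, 22.1 and 23.9 CPM in WT pups 1, 2, 3 and 5. KO pup 1 was again the only KO pup inside the WT range. Here the log2 fold change was 0.86 (SE 0.25), with an adjusted p of 0.211 in edgeR and 0.0209 in DESeq2.

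Laptm5, a lysosomal protein gene of blood cells, differed less, with 161 ± 56.0 CPM in KO and 136 ± 29.3 in WT (log2 fold change 0.25, SE 0.22). Cd52, a small surface glycoprotein, was near its limit of detection at 0.336 to 2.39 CPM (7 to 100 counts). The ratio of Cd53 to Laptm5 was 0.206, 0.265, 0.257 and 0.252 in KO pups 1 to 4 and 0.179, 0.170, 0.183 and 0.134 in WT pups 1, 2, 3 and 5, with no overlap, KO pup 1 included. The ratio of Apoe to Csf1r ran the other way, at 4.49, 3.65, 3.33 and 3.70 in KO pups 1 to 4 and 4.87, 6.72, 4.49 and 5.83 in WT pups 1, 2, 3 and 5, where KO pup 1 and WT pup 3 were equal after rounding.

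In edgeR the calls depended on KO pup 1. It was the lowest KO library for 31 of the 32 members, so leaving it out had to raise nearly all fold changes. Without it, edgeR called 4 of the 32 members higher in KO, against 0.411% of all tested genes: Cd14 (log2 fold change 0.99, adjusted p 0.0302), Cd86 (0.93, 0.0184), Ptprc (0.95, 0.0217) and Cd53 (1.08, 0.0132). With KO pup 1 and WT pup 2 both left out, 3 were called (Cd86, Ptprc and Cd53), against 0.349% of all. With only KO pup 1 left out, 11 members had KO pups 2, 3 and 4 above all 4 WT pups, against 6.69% of all tested genes. These were Gpr34, Csf1r, Tyrobp, Fcer1g, Cd14, Cd86, Spi1, Mrc1, Ptprc, Cd53 and Cd83. All 32 fold changes were above 0 without KO pup 1, with a median of 0.65. KO pup 1 was below every WT pup in 14 members. Without KO pup 3, in contrast, 24 fold changes were above 0 with a median of 0.17, and edgeR called 0 members (4 at an unadjusted p below 0.05).

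**Figure D4:**
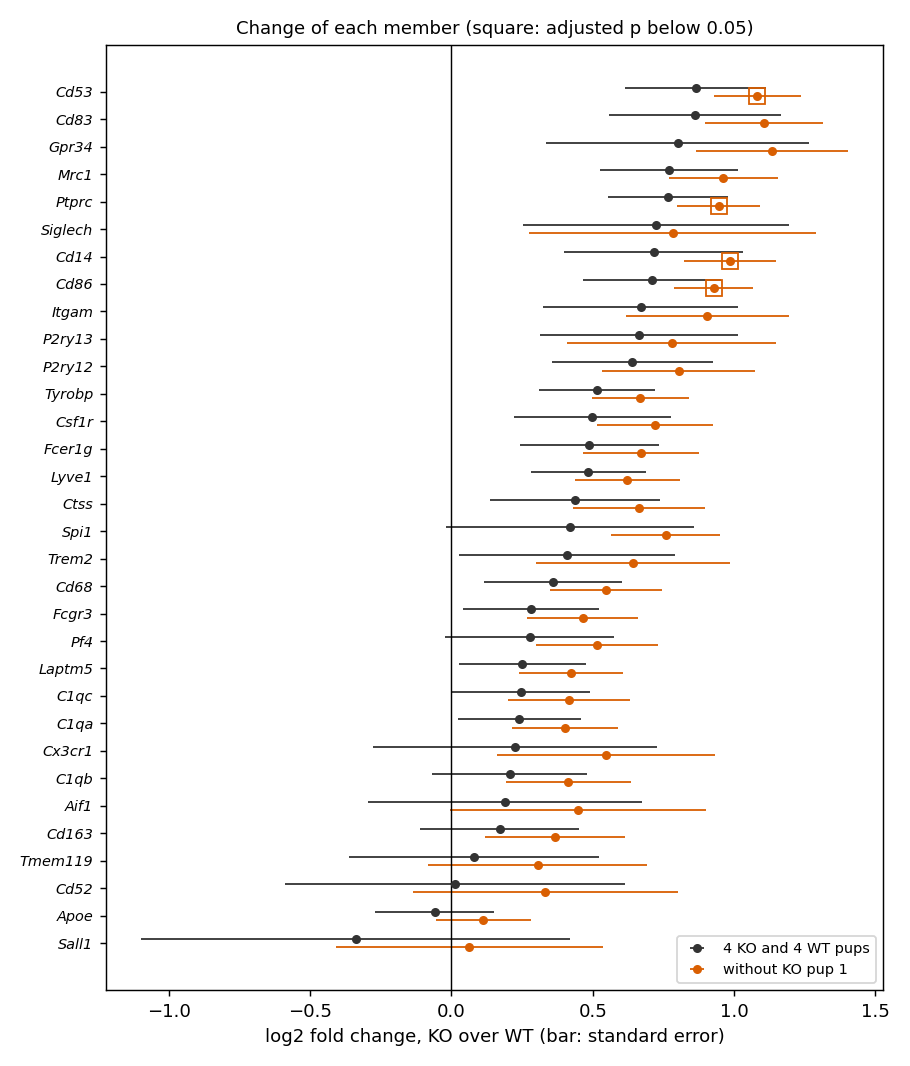
Log2 fold change of KO over WT for each member with its standard error, for all 8 libraries (black) and without KO pup 1 (orange), with squares around values whose edgeR adjusted p was below 0.05. With all libraries no member was called and 30 lay above 0, and without KO pup 1 Cd53, Ptprc, Cd14 and Cd86 were called.

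With cage as a term the median difference was smaller, though not that of every member. With the cage of the sample titles as a term, the median log2 fold change of the members was 0.11, 19 of 32 were above 0, and 0 were called or had an unadjusted p below 0.05 in edgeR. That fit rests on WT pup 5, which was the highest WT pup for 19 members. The second set of cage labels places WT pup 3, and not WT pup 5, with the KO pups. With these labels the median was 0.38, 28 were above 0, 0 were called and 1 had an unadjusted p below 0.05. Cd83 was larger in both fits, at 1.06 and 1.37 against 0.86. Genotype and cage cannot be told apart beyond these fits.

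Across libraries the members moved together. After taking out the group means, the median Pearson r over the 496 pairs of members was 0.87 (8 libraries, log2 CPM, as a description). Within the shared phagocyte class the median was 0.91, within the border class 0.86, within the pan-leukocyte class 0.80 and within the homeostatic class 0.76. Between classes it was of the same size, with 0.83 for homeostatic with border genes and 0.89 for shared with border genes. Pairs of the 12 endothelial genes had a median of 0.46, and members paired with endothelial genes -0.32. All of these correlations share the same 8 libraries and their scaling, with KO pups 1 and 3 at the ends of the KO range for nearly every member.

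Siglech was the member least like the others, with a median r of 0.38 to them, followed by Cd83 with 0.58, while Fcgr3 (0.94), Csf1r (0.93) and C1qb (0.93) were the most alike. The closest pairs were Apoe with Laptm5 (r = 0.996), Cx3cr1 with Cd68 (0.992) and Spi1 with Cd86 (0.991). The level relative to the homeostatic sum varied less between pups than the level itself for 27 of the 32 members. For Trem2 the within-group SD was 0.72 for the log2 level and 0.13 for the log2 ratio, and for Csf1r 0.54 and 0.22. The remaining 5 members, Siglech, Tyrobp, Lyve1, Ptprc and Cd83, were as variable or more so as a ratio.

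Single genes were also related to P2ry12 over the 8 libraries, 7 relations in all, with exact two-sided permutation p-values adjusted over the 7. For Csf1r, Pearson's r was 0.92 (exact permutation p = 0.00332, adjusted 0.00845) and Spearman's rho 0.88 (exact permutation p = 0.00724, adjusted 0.0507). Mrc1 gave an r of 0.92 (exact permutation p = 0.00171, adjusted 0.00845) and a rho of 0.71 (exact permutation p = 0.0576, adjusted 0.162). For Ptprc r was 0.84 (exact permutation p = 0.00362, adjusted 0.00845) and rho 0.69 (exact permutation p = 0.0694, adjusted 0.162). Without KO pups 3 and 4, the 2 libraries farthest from the median of P2ry12, r was 0.71 for Csf1r (exact permutation p = 0.0944), 0.55 for Mrc1 (exact permutation p = 0.246) and 0.44 for Ptprc (exact permutation p = 0.281). These 3 relations thus passed by Pearson's r only with KO pups 3 and 4 included, and by rho they missed the adjusted threshold even then. The 6 libraries left, over a narrower range, also give the test less to work with. With the group means taken out r was 0.91, 0.89 and 0.79. The cages held 5 and 3 libraries, too few for a value within each.

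The endothelial gene Cdh5 gave r = -0.16 with P2ry12 (exact permutation p = 0.703) and rho = -0.45 (exact permutation p = 0.267). The pericyte receptor gene Pdgfrb gave r = 0.49 (exact permutation p = 0.228) and rho = 0.57 (exact permutation p = 0.151). Without KO pups 3 and 4, however, Pdgfrb followed P2ry12 with r = 0.98 (exact permutation p = 0.00139, adjusted 0.00972). WT pup 2 had the lowest P2ry12 (10.5 CPM) and the lowest sum over the 10 mural genes (470.1 CPM). The relation to Pdgfrb was not run without that pup. Library depth gave r = -0.48 (log2 total counts, exact permutation p = 0.232) and rho = -0.31 (exact permutation p = 0.462). The number of detected genes gave r = -0.09 (exact permutation p = 0.797) and rho = -0.29 (exact permutation p = 0.501).

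**Figure D5:**
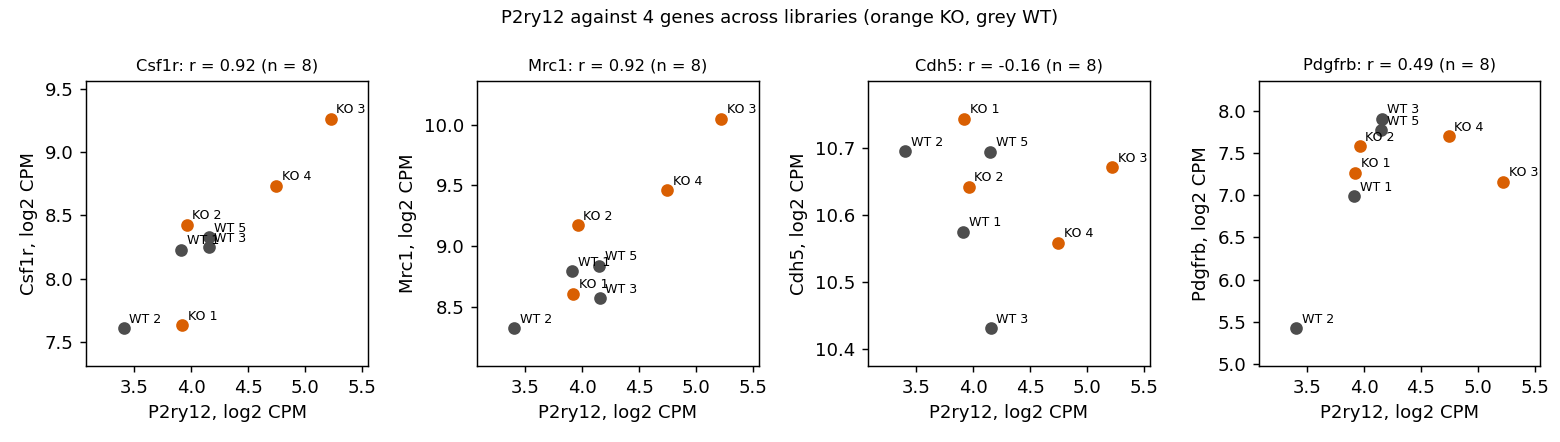
Log2 CPM of P2ry12 (horizontal axis) against Csf1r, Mrc1, Cdh5 and Pdgfrb (vertical axes) in the 8 libraries, orange for KO and grey for WT. KO pups 3 and 4 lie at the upper right for Csf1r and Mrc1 (r = 0.92 each), and no such trend is seen for Cdh5 (r = -0.16).

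Among all tested genes edgeR called 0.389%, and 11.1% had an unadjusted p below 0.05 (5.52% with KO higher). DESeq2 called 1.14% of its tested genes higher in KO, and the genes it called in the wider lists are named below. In edgeR, wider lists of the same cell types gave 1 call. The list of activated microglia held it: Spp1, which encodes osteopontin, rose from 9.43 ± 1.46 CPM in WT to 29.8 ± 15.8 CPM in KO (log2 fold change 1.67, edgeR adjusted p 0.0483). Its values were 17.4, 20.8, 28.6 and 52.5 CPM in KO pups 1 to 4 and 7.39 to 10.8 CPM in WT. KO pup 4 was highest, which among the members held for Cd52 alone. DESeq2 and limma-voom also called it, but in edgeR the call was lost (adjusted p 0.0655 to 0.12) without KO pup 2, KO pup 3 or any single WT pup, with fold changes of 1.56 to 1.80. It was lost as well with the cage of the titles (1.47, adjusted p 0.601), the second cage labels (1.65, adjusted p 0.691) or the replicate block (1.29, adjusted p 0.225) in edgeR. DESeq2 called Il1b and Clec7a too. Of the 16 tested genes of that list 15 had fold changes above 0, with a median of 0.52. Clec7a, the lectin Dectin-1, measured 1.18 (SE 0.34, edgeR adjusted p 0.21) without passing, with 6.62 to 17.0 CPM in KO and 3.67 to 7.94 in WT. The chemokine gene Ccl3 measured 0.54 and the lipase gene Lpl 0.59, and neither passed.

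In the wider microglial list edgeR called 0 of 21 tested genes, with 3 higher and 1 lower at an unadjusted p below 0.05. Of the 21, 19 were above 0, and the median was 0.31. DESeq2 called Mertk and Cd33 higher and Smad3 lower, and without KO pup 1 edgeR called Mertk. Mertk, a receptor for dying cells, measured 80.1 ± 10.5 CPM in KO and 55.8 ± 5.37 in WT, with every KO pup above every WT pup (log2 fold change 0.52, edgeR adjusted p 0.0813). Smad3, which carries TGF-beta signals, lay lower in every KO pup, at 112 ± 4.48 against 146 ± 17.6 CPM (log2 fold change -0.38, edgeR adjusted p 0.124). Slco2b1, an organic anion carrier, and Ctsd, a lysosomal protease, were the most abundant of the list, at 743 and 487 CPM in KO and 719 and 431 in WT. Endothelial cells also express several genes of this list, Slco2b1 and Smad3 among them.

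The wider border macrophage list had 0 of 16 genes called by edgeR, 4 at an unadjusted p below 0.05 (all higher), 13 above 0 and a median of 0.44. DESeq2 called Ednrb and Ccl24, and without KO pup 1 edgeR called Ednrb. Ednrb, the endothelin receptor B gene, measured 66.4, 69.3, 119 and 100.1 CPM in KO pups 1 to 4 and 48.6 to 55.8 CPM in WT (log2 fold change 0.80, edgeR adjusted p 0.0826). Every KO pup exceeded every WT pup, as also for the chemokine gene Ccl24, at 32.5 ± 11.2 against 16.1 ± 4.84 CPM (1.01, edgeR adjusted p 0.144). F13a1, the A subunit of coagulation factor XIII, measured 326 ± 114 CPM in KO and 225 ± 47.5 in WT (0.53, edgeR adjusted p 0.414). Stab1, a scavenger receptor also made by endothelium, measured 736 ± 139 CPM in KO and 787 ± 50.7 in WT (log2 fold change -0.097, not called).

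Growth factors of phagocytes and their receptors gave 0 edgeR or DESeq2 calls among 10 tested genes, 1 unadjusted p below 0.05 in edgeR and a median of 0.04. Csf1, a ligand of CSF1R, measured 121 ± 16.8 CPM in KO and 149 ± 29.8 in WT (log2 fold change -0.31, edgeR adjusted p 0.479). Cd200, a ligand that restrains myeloid cells, measured 136 ± 13.4 and 163 ± 25.9 CPM (-0.26, edgeR adjusted p 0.428). Intracellular signalling genes of phagocytes gave 0 edgeR or DESeq2 calls among 18, 2 unadjusted p below 0.05 in edgeR, 16 above 0 and a median of 0.31. Was, an actin regulator of blood cells, had a log2 fold change of 0.73 (edgeR adjusted p 0.309).

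Several defining genes of lymphocytes and neutrophils were low. The neutrophil genes Camp, Ngp and Ltf were also listed, and their values are not given here. T cell receptor complex genes Cd3e, Cd3d and Cd3g reached at most 0.217, 0.271 and 0.190 CPM and were at 0 in 3 libraries each. A count of 0 allows up to 0.144 CPM in the shallowest library (counting error only). B cell genes Cd79a and Ms4a1 reached 1.22 and 1.10 CPM. The neutrophil genes Ly6g and Elane were at 0 in 6 and 7 libraries, although S100a8 stood at 1.15 to 2.53 CPM in KO and 2.90 to 11.9 CPM in WT (log2 fold change -1.71, edgeR adjusted p 0.154). Other genes of these lists stood higher, with Cd4, which macrophages also express, at up to 16.5 CPM, Coro1a, an actin regulator of leukocytes in general, at up to 18.5 and S100a9 at up to 17.96. The monocyte receptor gene Ccr2 reached 0.953 CPM. The class II genes H2-Aa, H2-Ab1 and H2-Eb1 were highest in WT pup 1, where H2-Aa stood at 8.34 CPM against 0.630 to 1.58 in the other WT pups. Cd74, the class II invariant chain, was highest in KO pup 3 at 22.6 CPM. In edgeR 0 genes were called among 7 lymphocyte, 8 monocyte and dendritic cell, 7 neutrophil and mast cell and 3 platelet genes tested. At an unadjusted p below 0.05 there were 1, 0, 3 and 0. Of the 3 neutrophil and mast cell genes, 1 was higher in KO and 2 were lower. Without KO pup 1, 0 of that list were higher and 3 lower. DESeq2 called S100a8 alone, lower in KO.

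Beside the members, red blood cell genes summed to 571 to 1002 CPM in KO and 523 to 1631 in WT, with a median log2 fold change of -0.41, 0 of 6 called by edgeR or DESeq2 and 1 at an unadjusted p below 0.05. The 12 genes induced by tissue dissociation, such as Fos and Egr1, summed to 5003, 7536, 8147 and 6311 CPM in KO pups 1 to 4 and 6289, 9400, 3343 and 5560 CPM in WT pups 1, 2, 3 and 5. Cd83, an early response gene in myeloid cells, was lowest of WT in pup 3, where that sum was lowest too. The part of dissociation in Cd83 was not tested.

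The genes outside all lists whose pattern was most like the homeostatic sum were found over 9466 candidates, group means taken out, 8 libraries. The 10 closest were Tgfbi, Dse, Slc11a1, Clta, Specc1, Arap1, Ap1b1, Ctsb, Arl8a and Adgre1, with Pearson r between 0.98 and 0.996. Adgre1, which encodes the macrophage antigen F4/80, measured 68.8 ± 33.1 CPM in KO and 42.5 ± 11.2 in WT. Ctsb, the lysosomal protease cathepsin B, measured 823 ± 229 and 648 ± 109 CPM, and Slc11a1, a metal transporter of phagosomes, 10.5 and 9.09 CPM. None of the 10 was called, with edgeR adjusted p values between 0.45 and 0.997. They were picked for this likeness, which is given as a description.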

How the data were processed

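Per the labels' protocols, stranded poly(A) libraries of sorted cells were sequenced as single-end reads of 100 bp, with 1 pup per library. The authors deposited 1 table of raw whole-number counts per gene and library, per the file headers and values. STAR, featureCounts and GRCm38 are named in the submitters' processing notes. Versions, annotation release and strand setting were not found in the sources here. M21 (primary assembly) named 25664 of the 25700 identifiers, and the other 36 held 0.0223% of counts and stayed in the tests.

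The main test was that of edgeR 4.0.16 under R 4.3.3 (filterByExpr, minimum count 10 and minimum total 15, TMM factors 0.978 to 1.03, genotype as the only term, quasi-likelihood F test, Benjamini-Hochberg adjustment over 14154 genes, threshold 0.05), after a test on simulated data. DESeq2 1.42.0 and limma 3.58.1 were alternatives. Each standard error was the fold change divided by the root of its F, and log2 CPM used a prior count of 2. Sums over members have no test. Exact permutation tests enumerated all orders of the libraries. Each library is a separate pup by its title. The p-values of KO against WT set the difference between groups against the spread between pups of a group. With genotype and cage nearly confounded, they do not separate genotype from cage. All pairs of libraries differed by more than sampling noise (chi-square per gene of 15.6 or more).

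The members, lists and alternatives were chosen with earlier results of these data known. The alternatives for Spp1, Slc2a1 and the wider lists were added after seeing the data. Named beyond the members were, from each other list, genes called, the 2 highest in level and the 2 with the smallest p, of which the text gives those of immune lists and a few checks. Also named were the 10 genes most like the homeostatic sum. Genes named because they were at or near 0, and ratios between members, were chosen after their values were seen. RefSeq gave the promoter windows. For 21 of 27 member windows the first 30 bases after the start lay in an M21 transcript of the gene. Intervals and floors cover counting error only.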

Additional observations from a re-analysis of the deposited data

Results flagged for a closer look

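Of 216 groups of 4 pups examined (each gene named by rule and each class sum, KO and WT apart), 11 held a library far from the others, where chance gives about 1 in 20 groups. Among members, P2ry13 in KO pup 3 stood at 18.6 CPM against 8.73 to 9.55 in the other KO pups, and Siglech in KO pup 3 at 8.37 CPM against 4.23 to 4.80. Csf1r in WT pup 2 was low at 195 CPM, against 300 to 321 in the other WT pups.

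Among genes of other lists, Ctsd in WT pup 5 stood at 533 CPM against 388 to 408, Ccl3 in WT pup 1 at 72.1 CPM against 41.5 to 46.3, and Prox1 in WT pup 3 at 1.92 CPM against 3.08 to 3.31. The class II genes were high in WT pup 1, with H2-Eb1 at 6.6 CPM against 0.759 to 1.46, H2-Ab1 at 6.03 CPM against 1.02 to 1.73 and H2-Aa at 8.34 CPM. H2-Ab1 was at 0 in KO pup 1 against 1.96 to 2.07 CPM in the other KO pups. S100a9 stood at 9.4 CPM in KO pup 1 against 2.44 to 3.48.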

How the results depend on the processing

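With DESeq2 size factors, a stricter filter, no filter or limma-voom, 0 members were called, as in the main test (9 to 12 at an unadjusted p below 0.05). The members called higher were 2 with DESeq2 and 3 without KO pup 1 and WT pup 2, and 0 to 4 when single pups were left out, the 4 being without KO pup 1. Over all genes, 39 were higher and 16 lower. DESeq2 gave 171 and 180, no filter 38 lower, the cage of the titles 10 and 6, and leaving out KO pup 1 and WT pup 2 gave 26 lower. The second cage labels gave 10 and 0 in edgeR (314 lower at an unadjusted p below 0.05). Leaving out single pups gave 25 to 60 higher (25 without KO pup 2, 60 without KO pup 1) and 6 to 27 lower (6 without KO pup 3, 25 without KO pup 1, 27 without WT pup 3).

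Pup number as a replicate block gave 11 higher and 0 lower genes in edgeR (524 lower at an unadjusted p below 0.05) and 0 members called (7 at an unadjusted p below 0.05). Slc2a1 missed the threshold with the block and with the second cage labels (log2 fold change -0.91 and -0.89 against -1.01, edgeR adjusted p 0.0931 and 0.331). Pups of the same number came from different cages by the titles, and their deviations from the group means correlated at -0.03, 0.03 and -0.07 for pups 1, 2 and 3, so the numbers pair nothing.

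The log2 fold change changed sign under some alternative for 1 or more members of each class, Siglech (0.72), Ctss (0.44) and Trem2 (0.41) among them. With the cage of the titles it was -0.14 for Tmem119, -0.36 for Cx3cr1, -0.054 for C1qa, -0.14 for C1qb, -0.15 for C1qc, -0.13 for Trem2, -0.031 for Fcgr3, -0.035 for Ctss, -0.26 for Cd163, -0.15 for Laptm5 and -0.14 for Cd52. With the second cage labels it was -0.41 for Tmem119, -0.36 for Siglech, 0.077 for Apoe and -0.50 for Cd52. Cd52 measured -0.47 with the replicate block, and Apoe 0.052 without KO pup 1 and WT pup 2. Leaving out single pups gave -0.32 to 0.30 for Tmem119, -0.30 to 0.55 for Cx3cr1, -0.62 to 0.064 for Sall1, -0.060 to 0.41 for C1qb, -0.27 to 0.47 for Aif1, -0.28 to 0.11 for Apoe, -0.11 to 0.37 for Cd163 and -0.46 to 0.33 for Cd52. The cause was not tested.

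When single pups were left out, the log2 ratio of the class sums ran from 0.01 to 0.66 for homeostatic and -0.09 to 0.33 for shared phagocyte genes. It ran from 0.33 to 0.78 for border macrophage and 0.38 to 0.81 for pan-leukocyte genes. Without the 2 libraries farthest from the median, the relation to P2ry12 missed the threshold for Csf1r (r = 0.71), Mrc1 (0.55) and Ptprc (0.44), where fewer samples were tested, and passed it for Pdgfrb (0.98). For detected genes r was 0.25 with the group means taken out. Depth limits Sall1, Tmem119 and Cd52 most, with 2, 27 and 7 counts in KO pup 1.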
